A study of Mus musculus with 49 samples.

Results

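The cells described here are those that carried both Six2 and Foxd1 transcripts at 1 RPKM or more, 9 of the 49 sequenced cells (18.4%, exact 95% binomial interval 8.76 to 32%, counting error only). They were chosen by these values from a table of RPKM, reads per length of gene and per mapped read of a cell, and are called double cells. They are the cells numbered 3, 15, 19, 21, 31, 35, 47, 49 and 50. They were set against 18 cells with Six2 alone and 15 cells with Foxd1 alone at that level, and 7 cells had neither. All cells came from the metanephric mesenchyme of mouse embryos at 11.5 dpc (Theiler stage 19), both sexes, on a mixed background. Every group carries the transgene Tg(Crym-EGFP)82Gsat, in which EGFP is driven by Crym regulatory sequence. The tissue was dissected by its fluorescence, with a few cells from outside the Crym domain, dissociated with trypsin and captured on the Fluidigm C1, and the chambers were inspected under a microscope. The labels name no embryo, so the 49 cells count as 1 sample and no p-value was computed. Differences between groups of cells are given as sizes without a test.

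In the kidney rudiment, Six2 is the transcription factor that keeps nephron progenitors in a self-renewing state in the cap mesenchyme around the ureteric bud, and loss of it leads to premature nephron formation. Foxd1 is a transcription factor of the cortical stroma, the tissue that surrounds the cap and gives rise to interstitial, mesangial and mural cells. Lineage tracing has treated these as separate compartments once the kidney has formed, and at the onset of branching both lie within the same small mesenchyme.

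Relative depth, taken from the spacing of low RPKM values, was 0.818 to 1.17 times that of the median cell in 8 of the double cells and 0.0346 in cell 3; the Foxd1-only cell 7 had 0.0462. Genes at 1 RPKM or more numbered 4924 to 6510 in double cells with a median of 5670, against 4178 to 6469 in Six2-only cells and 3862 to 6330 with a median of 5232 in Foxd1-only cells. The ranges overlapped, and double cells had the highest median. Ureteric bud genes, of 13 in the list, numbered at most 2 in any double cell. Endothelial genes numbered at most 1 of the 9 with values, from a list of 11. Macrophage genes also numbered at most 1, but only 3 of the 9 in that list had values. All 49 cells had at least 1 gene of the Y-linked list at 1 RPKM, while the labels give the sex as both; Xist was not analysed here. Whether a chamber held more than 1 cell was not tested beyond the submitters' microscope record.

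Six2 (gene ID 20472, chromosome 17, 86083608 to 86087594, mm9) ranged in the double cells from 3.73 RPKM in cell 31 and 3.86 RPKM in cell 47 to 112 RPKM in cell 19 and 117 RPKM in cell 15, with a median of 46.1 RPKM. In Six2-only cells it ranged from 2.24 to 109 RPKM with a median of 49.2 RPKM. Foxd1 (gene ID 15229, chromosome 13, 99124200 to 99126660) ranged from 1.81 RPKM in cell 15 and 2.83 RPKM in cell 47 to 36.4 RPKM in cell 50, with a median of 7.12 RPKM, against 1.12 to 60.1 RPKM with a median of 30.3 RPKM in Foxd1-only cells. Both genes selected the groups, so these levels are a description. Six2 in the double cells covered nearly the span of the Six2-only cells. Foxd1 overlapped with the Foxd1-only cells at a lower median, with a difference of -1.33 in mean log2(RPKM + 1).

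**Figure D1:**
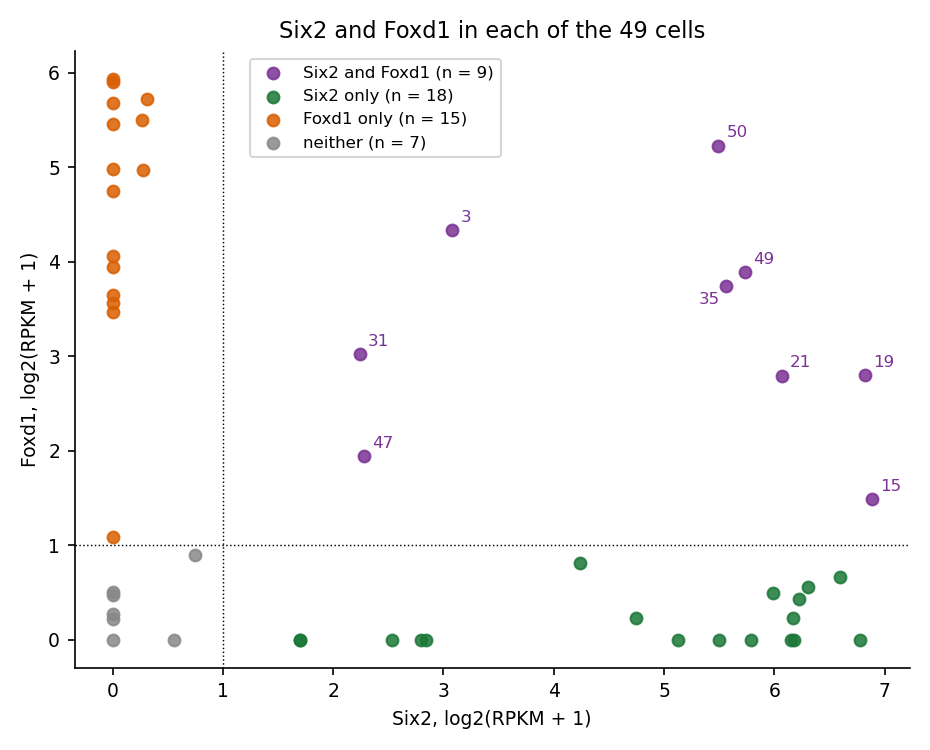
Six2 (horizontal axis) and Foxd1 (vertical axis) as log2(RPKM + 1) in each of the 49 cells, 1 point per cell, coloured by group; the dotted lines mark 1 RPKM and numbers name the 9 double cells. Double cells spread from 3.73 to 117 RPKM of Six2 and from 1.81 to 36.4 RPKM of Foxd1.

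The low values show how much signal lies behind each call. Multiplied by the relative depth of the cell, the RPKM of Six2 and Foxd1 fell on whole multiples of a smallest step, within 0.02 of a whole number for 39 of the 40 values of up to 100 steps, so that a step is 1 read if the smallest step is. A step was worth 0.258 RPKM for Six2 and 0.221 RPKM for Foxd1 in a cell of median depth. Cell 3 was called double on 1 step of Six2, which there was worth 7.44 RPKM, and 3 steps of Foxd1. Each of the other 8 double cells had at least 13 steps of Six2 and 8 of Foxd1. Six2 had 13 steps in cell 31, 14 in cell 47, 171 in cell 50, 197 in cell 49 and 210 in cells 21 and 35. Foxd1 had 8 steps in cell 15, 12 in cell 47, 22 in cell 21, 29 in cell 31, 30 in cell 19, 61 in cell 49, 66 in cell 35 and 165 in cell 50.

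Cells outside the group were by the rule under 1 RPKM for at least 1 of the genes. At median depth only a few steps of that gene were then possible, so the low counts follow from the rule. Among the 18 Six2-only cells 7 had any Foxd1, with at most 3 steps, and among the 15 Foxd1-only cells 3 had any Six2, with 1 step each. The cells nearest to the limit from outside were cell 34 with 0.752 RPKM of Foxd1, cell 24 with 0.582 RPKM of Foxd1, and cell 45, which had neither at the limit, with 0.675 RPKM of Six2 and 0.867 RPKM of Foxd1. The nearest inside were cells 15 and 47, with 1.81 and 2.83 RPKM of Foxd1. At a limit of 5 steps of each gene the double group was the same without cell 3.

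Crym, which encodes a thyroid hormone binding protein and whose regulatory sequence drives the reporter, was high in the double cells. It stood at 96.1 RPKM in cell 3, 141 in cell 50, 298 in cell 47, 403 in cell 49, 619 in cell 21, 777 in cell 35, 787 in cell 19 and 1480 in cell 15, and at 3.15 RPKM in cell 31. At 10 RPKM or more it was found in 8 of 9 double cells, against 16 of 18 Six2-only cells and 3 of 15 Foxd1-only cells. The mean log2(RPKM + 1) of the double cells differed by -0.18 from that of Six2-only cells, or by 0.56 without cell 31, and by 5.41 from that of Foxd1-only cells. Cell 31 was the double cell in the low range of Crym that held most Foxd1-only cells.

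The other nephron progenitor genes were detected in double cells about as often as in Six2-only cells. Of the 15 list genes other than Six2, the double cells had 11 in cells 15, 19 and 21, 10 in cells 47 and 49, 9 in cell 35, 8 in cell 50, 6 in cell 3 and 4 in cell 31. The median was 10 genes, against 9 (6 to 11) in Six2-only cells and 4 (2 to 7) in Foxd1-only cells. Cell 31 lay within the range of the Foxd1-only cells alone and cell 3 within both ranges, and the other 7 lay above the Foxd1-only range. Differences were computed for the 9933 genes at 1 RPKM or more in at least 5 of the 42 cells with either gene, and a difference of 1 or more in mean log2(RPKM + 1) was counted; this scale understates the change of low genes. Of 13 nephron progenitor genes compared, 0 were higher and 1 was lower than in Six2-only cells, where 12.8% of all compared genes were higher and 6.89% lower. Against Foxd1-only cells 9 of the 13 were higher and 0 lower, where 15.2% of all compared genes were higher and 7.35% lower. This list and those below were chosen with earlier results of these data known, so such shares are a description and not independent support. The list's median difference was -0.38 against Six2-only cells and 1.49 against Foxd1-only cells, beside 0.10 and 0.13 over all compared genes. Without cells 3 and 7 the list's medians were -0.24 and 1.77, beside 0.19 in each case over all genes. There, 1 gene was higher and 0 lower than in Six2-only cells, and again 9 were higher than in Foxd1-only cells. Of all 9826 genes compared in that setting, 1575 were higher and 577 lower than in Six2-only cells, and 1793 were higher than in Foxd1-only cells.

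Eya1, a transcriptional coactivator required for the mesenchyme to form, reached 1 RPKM in 8 of 9 double cells (88.9%, interval 51.8 to 99.7%), against 18 of 18 Six2-only and 3 of 15 Foxd1-only cells (20%, interval 4.33 to 48.1%). Its levels ran from 0.22 RPKM in cell 49 to 200 RPKM in cell 15 with a median of 25.6 RPKM, against medians of 43.9 RPKM in Six2-only and 0.333 RPKM in Foxd1-only cells. Cell 49 was the exception, with 52.1 RPKM of Six2 and Eya1 below the limit. Spock2, a secreted proteoglycan gene, was found in 7 of 9 double, 16 of 18 Six2-only and 0 of 15 Foxd1-only cells, the last with an interval of 0 to 21.8%. It was listed at 0 in cells 3 and 31 and reached 55.9 RPKM in cell 49. Osr1, a zinc finger factor of the early intermediate mesoderm, was found in 6 of 9 double, 15 of 18 Six2-only and 3 of 15 Foxd1-only cells. Cells 3, 31 and 50 had none, and the other 6 had 10.9 to 124 RPKM. Osr1 was the list gene counted as lower than in Six2-only cells, with a difference of -1.16, or -0.71 without cells 3 and 7.

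Other genes of this list varied from cell to cell within the double group. Wt1 and Sall1, transcription factors needed for early kidney growth, were at 1 RPKM or more in all 9. Wt1 ran from 6.15 RPKM in cell 35 to 76.6 RPKM in cell 50 and lay within the range of both other groups. Cited1, a transcriptional co-regulator of the most undifferentiated cap cells, was found in 4 of 9 double, 8 of 18 Six2-only and 0 of 15 Foxd1-only cells, at 5.05 RPKM in cell 49, 10.6 in cell 19, 16.8 in cell 47 and 41.3 in cell 21. Gdnf, whose signal makes the ureteric bud grow out, was found in 4 of 9 double cells at 1.16 to 162 RPKM, the last in cell 49, against 8 of 18 Six2-only and 3 of 15 Foxd1-only cells. Pax2, a paired-box factor of the renal lineage, was found in 4 of 9 double, 3 of 18 Six2-only and 0 of 15 Foxd1-only cells. Meox2, a homeobox gene of the mesenchyme list, was found in 7 of 9 double cells at 6.68 to 109 RPKM, against 13 of 18 Six2-only and 0 of 15 Foxd1-only cells.

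The stroma genes were detected in double cells nearly as often as in Foxd1-only cells, but at lower levels. Of 16 list genes other than Foxd1, the double cells had 14 in cell 31, 13 in cell 49, 12 in cell 3, 11 in cell 50, 10 in cells 21 and 47, 8 in cells 19 and 35 and 3 in cell 15. The median was 10 genes, against 3.5 (1 to 11) in Six2-only cells and 11 (8 to 14) in Foxd1-only cells. Cell 15 lay within the range of Six2-only cells alone, and cells 3, 31 and 49 within that of Foxd1-only cells alone. Cells 19, 21, 35, 47 and 50 lay within both ranges, which overlap. Of 14 genes compared, 11 were higher and 0 lower than in Six2-only cells, beside 12.8% and 6.89% of all compared genes. Against Foxd1-only cells 1 was higher and 9 lower, beside 15.2% and 7.35% of all. The median difference was 1.76 against Six2-only cells and -1.32 against Foxd1-only cells, where all compared genes had 0.10 and 0.13. Without cells 3 and 7 the stroma medians were 1.81 and -1.36.

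**Figure D2:**
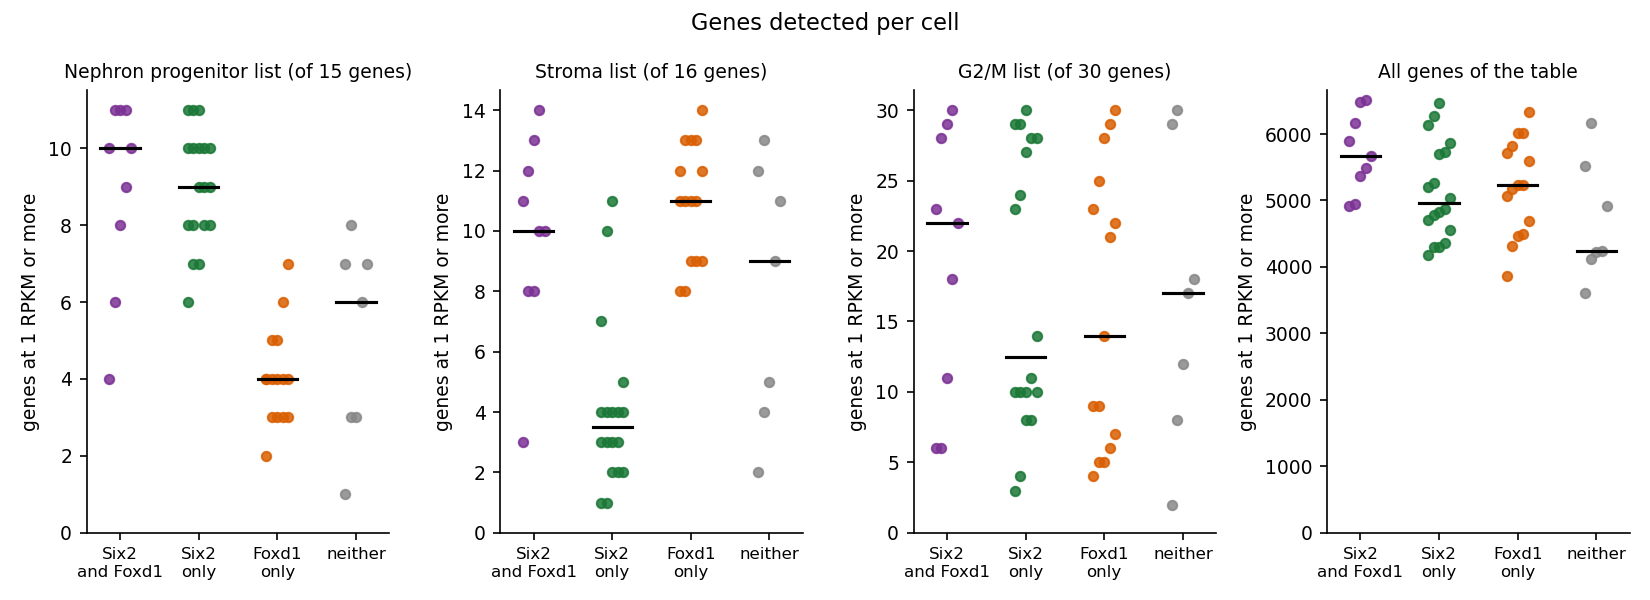
Number of genes at 1 RPKM or more per cell for the nephron progenitor list, the stroma list, the G2/M list and the whole table, 1 point per cell and a bar at each group's median. Double cells have medians of 10 nephron progenitor and 10 stroma genes, while Six2-only cells have 9 and 3.5 and Foxd1-only cells 4 and 11.

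Pdgfra, the receptor for platelet-derived growth factor on mesenchymal and stromal cells, was found in 7 of 9 double cells (77.8%, interval 40 to 97.2%), 1 of 18 Six2-only cells (5.56%, interval 0.141 to 27.3%) and 14 of 15 Foxd1-only cells (93.3%, interval 68.1 to 99.8%). Its levels were 0.124 RPKM in cell 15, 0.258 in cell 35, 1.09 in cell 19, 1.75 in cell 3, 4.6 in cell 49, 5.03 in cell 21, 33.6 in cell 50, 43.1 in cell 31 and 53.8 in cell 47. Foxd1-only cells had a median of 31.4 RPKM and Six2-only cells 0.0264 RPKM, so 3 double cells were at or above the Foxd1-only median. Cxcl12, the chemokine of the renal stroma, was at 1 RPKM or more in all 9 double cells, at 9.63 to 231 RPKM with a median of 26 RPKM. It had a median of 1.86 RPKM in Six2-only cells, of which 10 of 18 reached the limit, and 28.3 to 266 RPKM with a median of 134 RPKM in Foxd1-only cells. All but cells 19, 31, 49 and 50 lay below the lowest Foxd1-only cell. Its mean log2(RPKM + 1) differed by 3.12 from Six2-only and by -1.77 from Foxd1-only cells.

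The fibrillar collagen genes Col1a1, Col1a2, Col3a1 and Col5a2 also had medians between those of the other groups, while Col5a1 had 2.1 RPKM in double, 0 in Six2-only and 1.15 in Foxd1-only cells. Col1a1 was found in 8 of 9 double, 3 of 18 Six2-only and 15 of 15 Foxd1-only cells. Its median was 8.75 RPKM in double, 0 in Six2-only and 27.6 in Foxd1-only cells. Col1a2 was found in 7 double, 2 Six2-only and 14 Foxd1-only cells, and Col3a1 in 7 double, 4 Six2-only and 14 Foxd1-only cells. Cell 15 was below 1 RPKM for Col1a1, Col1a2 and Col3a1, and cell 19 for Col1a2 and Col3a1. Of 20 matrix genes compared, 10 were higher and 0 lower than in Six2-only cells (12.8% and 6.89% of all genes), and 1 was higher and 4 lower than in Foxd1-only cells (15.2% and 7.35% of all genes). Fn1, the fibronectin gene, was one of the 10, with a difference of 2.74 from Six2-only cells, and was found in 8 of 9 double, 8 of 18 Six2-only and 14 of 15 Foxd1-only cells. Col1a1, Col1a2 and Col3a1 were among the 10 higher and the 4 lower genes and were also counted in the stroma list. Vcan, a matrix proteoglycan gene, was the matrix gene higher than in Foxd1-only cells, by 1.41, with medians of 60.1 RPKM in double, 68.8 in Six2-only and 25.6 in Foxd1-only cells. Without cells 3 and 7, 4 matrix genes were higher than in Foxd1-only cells, which were Vcan by 1.57, Col4a1 by 1.33, Sparc by 1.16 and Mfap4 by 1.02. Of all genes compared in that setting, 1793 of 9826 were higher, a share near that of the matrix genes.

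Ebf1, a transcription factor of stromal and mesenchymal cells, lay furthest below the Foxd1-only cells among the 16 mesenchyme regulators compared, with a difference of -3.10. It was found in 5 of 9 double, 1 of 18 Six2-only and 14 of 15 Foxd1-only cells, with medians of 2.74 RPKM in double, 0.038 in Six2-only and 68.2 in Foxd1-only cells. Only cells 31, 49 and 50, with 11.6, 20 and 48.9 RPKM, exceeded 10 RPKM. Nr2f1, an orphan nuclear receptor, had a median in the double cells of 70.7 RPKM, against 5.12 RPKM in Six2-only and 69.3 RPKM in Foxd1-only cells. Of the 16 regulators, 6 were higher and 0 lower than in Six2-only cells (12.8% and 6.89% of all genes) and 1 was higher and 5 lower than in Foxd1-only cells (15.2% and 7.35% of all genes). The gene that was higher was Meox2, by 3.94.

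Crabp1, a cytosolic retinoic acid binding protein, was found in 7 of 9 double, 4 of 18 Six2-only and 15 of 15 Foxd1-only cells. It was listed at 0 in cells 3 and 15 and stood at 69.9 to 772 RPKM in the other 7, with the highest value in cell 31. The group medians were 148 RPKM in double, 0 in Six2-only and 367 in Foxd1-only cells. Aldh1a2, the enzyme that makes retinoic acid in the embryonic stroma, was found in 8 of 9 double, 7 of 18 Six2-only and 14 of 15 Foxd1-only cells. Its median was 8.84 RPKM in double, 0.336 in Six2-only and 58.3 in Foxd1-only cells. Of 10 genes of retinoic acid handling compared, 4 were higher and 0 lower than in Six2-only cells (12.8% and 6.89% of all genes), and 0 were higher and 2 lower than in Foxd1-only cells (15.2% and 7.35% of all genes). Aldh1a2 and Rarb were among the 4 higher genes and were also counted in the stroma list.

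**Figure D3:**
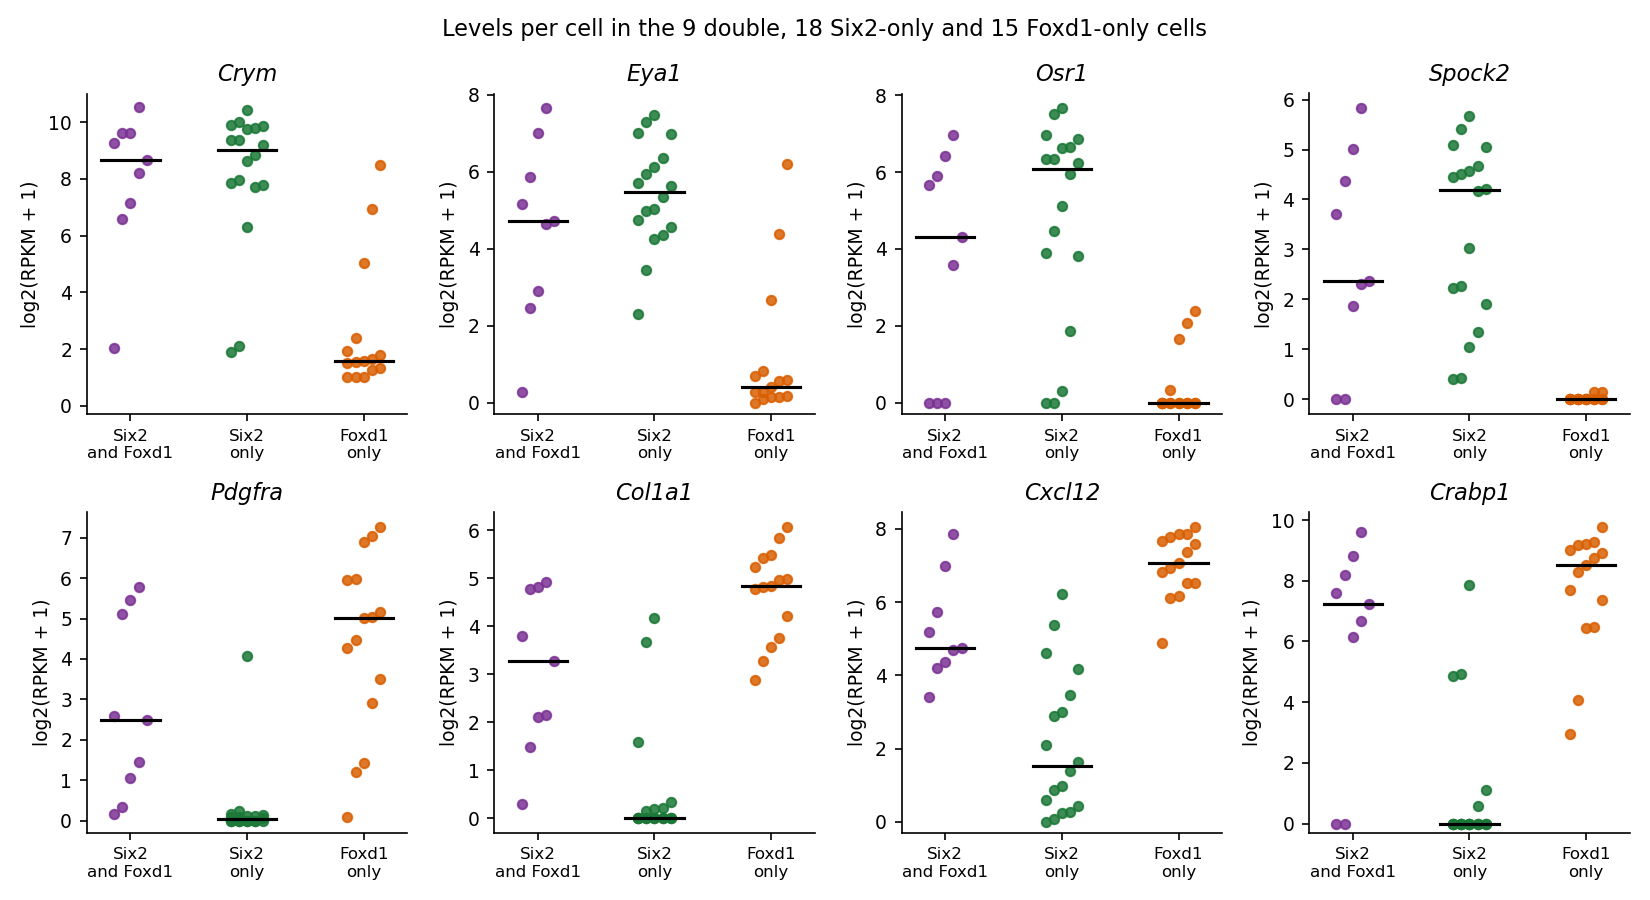
Levels of 8 genes as log2(RPKM + 1) in double, Six2-only and Foxd1-only cells, 1 point per cell and a bar at the median. For Crym and Eya1 most double cells lie with the Six2-only cells, while for Cxcl12 their median of 26 RPKM lies between 1.86 RPKM in Six2-only and 134 RPKM in Foxd1-only cells.

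**Figure D4:**
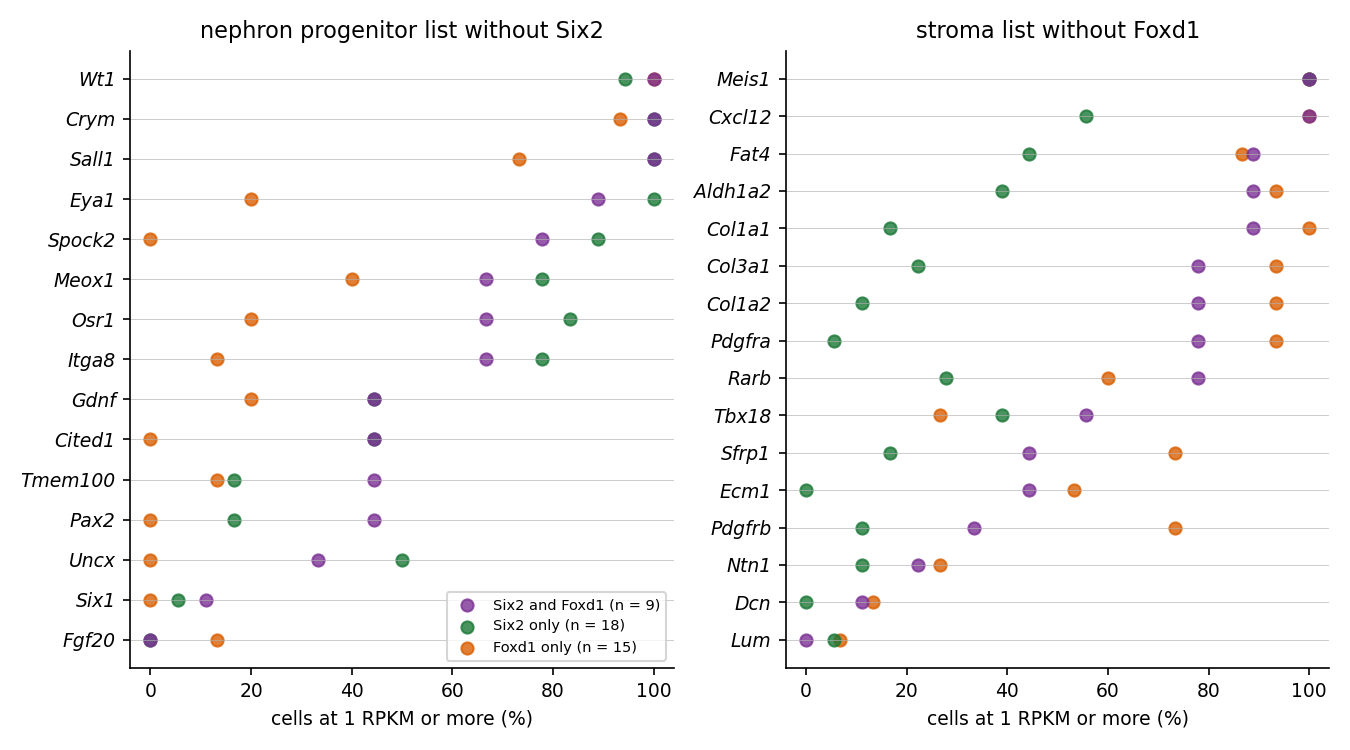
Share of cells at 1 RPKM or more for each gene of the nephron progenitor list (left) and the stroma list (right), for double, Six2-only and Foxd1-only cells; overlapping points are drawn on each other. Spock2 is found in 7 of 9 double and 0 of 15 Foxd1-only cells, and Pdgfra in 7 of 9 double and 1 of 18 Six2-only cells.

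Taking both lists per cell, 6 of 9 double cells had at least 8 nephron progenitor and at least 8 stroma genes, which are cells 19, 21, 35, 47, 49 and 50. This was true of 2 of 18 Six2-only cells, 0 of 15 Foxd1-only cells and 0 of 7 cells with neither. Without cells 3 and 7 it was true of 6 of 8 double, 2 of 18 Six2-only and 0 of 14 Foxd1-only cells. The 2 Six2-only cells were cell 23, with 11 nephron progenitor and 10 stroma genes, and cell 48, with 11 of each; Foxd1 was listed at 0 in both. Cells 23 and 48 also had 6275 and 6469 genes detected, the highest numbers of their group. Within the double cells, Spearman's coefficient between genes detected in the whole table and stroma genes was -0.02, and with nephron progenitor genes 0.40 (n = 9 cells from 1 series, as a description). These coefficients take each list alone. The 6 double cells with both lists had 5482 to 6510 genes detected, against 4924 to 5374 in cells 3, 15 and 31. The part of gene detection in holding both lists was not tested.

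Over the whole table, 161 genes (1.74% of 9268 compared) were higher by 2 or more in Six2-only than in Foxd1-only cells and 163 (1.76%) were lower, without use of the double cells. Each cell was given a place on a scale whose ends, 0 and 1, are the means of the Foxd1-only and Six2-only cells over the genes chosen on them. A cell with either gene alone was placed with genes and ends set without it. The mean place was then 0.817 in Six2-only and 0.229 in Foxd1-only cells, so the ends lie further apart than cells that had no part in setting them. The double cells had no part in setting them. Double cells lay at 0.17 (cell 31), 0.40 (cell 3), 0.47 (cell 49), 0.48 (cell 47), 0.56 (cell 35), 0.59 (cell 50), 0.65 (cell 19), 0.74 (cell 21) and 0.86 (cell 15), with a median of 0.56. Six2-only cells lay at 0.60 to 1.02 with a median of 0.82, Foxd1-only cells at 0.07 to 0.47 with a median of 0.20, and cells with neither at 0.20 to 0.71. The highest Foxd1-only place was that of cell 25, which had 12 of the 13 ureteric bud genes; without it the highest was 0.43, in cell 41. Between 0.4 and 0.6 were 5 of 9 double, 1 of 18 Six2-only, 2 of 15 Foxd1-only and 1 of 7 cells with neither. Cells 19, 21 and 15 were within the range of Six2-only cells, cells 3, 31 and 49 within that of Foxd1-only cells, and cells 35, 47 and 50 between them.

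Double cells held genes of both sides, and so did some cells of the other groups. The mean log2(RPKM + 1) over the 161 Six2-side genes was 3.58 in double cells, against 4.39 in Six2-only and 1.87 in Foxd1-only cells. Over the 163 Foxd1-side genes it was 3.09 in double cells, against 1.47 in Six2-only and 4.30 in Foxd1-only cells. The Six2-only and Foxd1-only means are those that chose the genes. Cells 47 and 49 had 126 and 115 of the Six2-side genes and 132 and 124 of the Foxd1-side genes at 1 RPKM or more. Cell 15 had 113 Six2-side and 58 Foxd1-side genes, cell 31 had 87 Six2-side and 132 Foxd1-side genes, and the shallow cell 3 had 90 Six2-side and 105 Foxd1-side genes. Double cells had medians of 115 Six2-side and 107 Foxd1-side genes. Six2-only cells had medians of 128 Six2-side and 47.5 Foxd1-side genes, and Foxd1-only cells medians of 59 Six2-side and 135 Foxd1-side genes. Some single cells of the other groups were as mixed as double cells. Six2-only cell 23 had 140 Six2-side and 109 Foxd1-side genes, and cell 48 had 139 and 101. Foxd1-only cell 41 had 102 and 135, and cell 38, with neither gene, had 118 and 109.

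**Figure D5:**
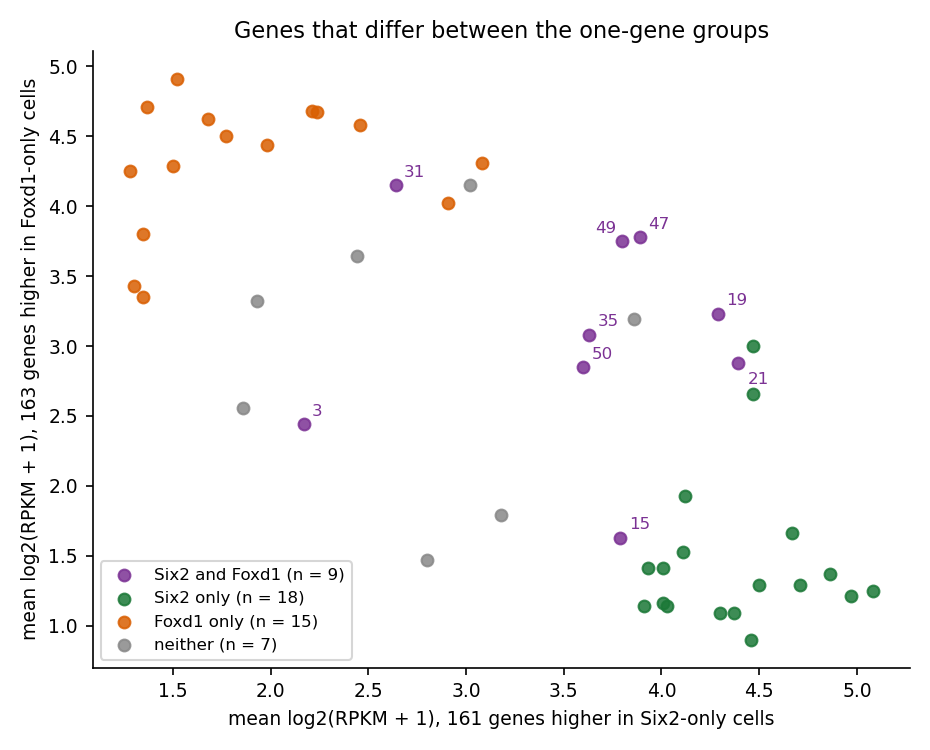
Mean log2(RPKM + 1) over the 161 genes higher in Six2-only cells (horizontal axis) and over the 163 genes higher in Foxd1-only cells (vertical axis), 1 point per cell, with the 9 double cells numbered. Cells 47 and 49 are at 3.89 and 3.8 on the first axis and 3.78 and 3.75 on the second, cell 31 lies among the Foxd1-only cells, and cell 15 is beside the Six2-only cells.

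The ratio of Six2 to Foxd1 RPKM was 64.8 in cell 15, 18.8 in cell 19, 11.1 in cell 21, 3.77 in cell 49, 3.71 in cell 35, 1.36 in cell 47, 1.21 in cell 50, 0.523 in cell 31 and 0.389 in cell 3. Spearman's coefficient between this ratio and the place was 0.82 over 9 cells and 0.76 over 8 without cell 3. The coefficient was 0.85 between Six2 and the number of nephron progenitor genes, and 0.58 between Foxd1 and the number of stroma genes (0.87 and 0.57 without cell 3). These are descriptions over cells that share a preparation and differ in depth. Six2 and Foxd1 selected the cells and also formed the groups that chose the genes of the place. The gene lists were chosen with earlier results of these data known. The paired measures are therefore not independent, and no support is drawn from the coefficients.

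Cell 31 and cell 15 marked the ends of the group. Cell 31 combined 3.73 RPKM of Six2 with 14 of 16 stroma genes, among them Cxcl12 at 231, Col1a2 at 85 and Pdgfrb, a receptor of mural and stromal cells, at 50.5 RPKM, and with Sall1 at 105 RPKM. Its Spock2 and Osr1 were listed at 0 and Eya1 stood at 4.47 RPKM. Cell 15 combined the highest Six2, Crym, Eya1 and Osr1 of the double cells with 1.81 RPKM of Foxd1, and among stroma genes held Meis1 at 165, Cxcl12 at 9.63 and Aldh1a2 at 8.84 RPKM, with Pdgfra, Col1a1, Col1a2 and Col3a1 under 1 RPKM. Cell 49 combined some genes of both lists at high levels, with Gdnf at 162 RPKM, Spock2 at 55.9, Col3a1 at 57.3, Cxcl12 at 127 and Sfrp1, a secreted Wnt antagonist, at 71.2 RPKM. Other members of both lists were low or absent there. Eya1 stood at 0.22 RPKM, Aldh1a2 at 1.72, Rarb at 1.25 and Pdgfrb at 1.03 RPKM, and Meox1 and Tmem100 were listed at 0.

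Bmp7, a survival signal for nephron progenitors, was found in 8 of 9 double cells (88.9%, interval 51.8 to 99.7%), 6 of 18 Six2-only cells (33.3%, interval 13.3 to 59%) and 2 of 15 Foxd1-only cells (13.3%, interval 1.66 to 40.5%). It was listed at 0 in cell 31 and stood at 3.99 to 47.1 RPKM in the other 8, while the medians of the Six2-only and Foxd1-only cells were 0.17 and 0 RPKM. Gli3, a transcription factor of the hedgehog pathway, was found in all 9 double, 10 of 18 Six2-only and 13 of 15 Foxd1-only cells. Its median was 26.2 RPKM in double, 2.91 in Six2-only and 8.48 in Foxd1-only cells. Gfra1, a co-receptor for Gdnf, differed by -1.04 from Six2-only and by 2.19 from Foxd1-only cells. Fgfr1, a fibroblast growth factor receptor, differed by -1.54 from Six2-only and by -0.94 from Foxd1-only cells, with medians of 13.4 RPKM in double, 60 in Six2-only and 39.8 in Foxd1-only cells. Of 21 signalling genes compared, 3 were higher and 3 lower than in Six2-only cells, the higher share being near the 12.8% of all genes, whose lower share was 6.89%. Against Foxd1-only cells 6 were higher and 4 lower, beside 15.2% and 7.35% of all genes. Wnt4, which marks the first step toward a nephron, was listed at 0 in all 9 double cells and found in 3 of 18 Six2-only and 0 of 15 Foxd1-only cells.

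Hox genes of paralog groups 9 to 11, which pattern the metanephric region, were present in the double cells. Hoxa9 was found in 9 of 9 double, 12 of 18 Six2-only and 9 of 15 Foxd1-only cells, with medians of 20.7 RPKM in double, 4.98 in Six2-only and 3.1 in Foxd1-only cells. Hoxa11 was found in 6 of 9 double, 10 of 18 Six2-only and 2 of 15 Foxd1-only cells. Of 10 genes compared, 2 were higher than in Six2-only cells (12.8% of all genes) and 4 were higher than in Foxd1-only cells (15.2% of all genes), and 0 were lower in either comparison (6.89% and 7.35% of all genes).

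Of 30 genes of DNA replication and the G1/S transition compared, 16 were higher and 0 lower than in Foxd1-only cells (15.2% and 7.35% of all genes), with a median difference of 1.28 beside 0.13 over all genes. Against Six2-only cells 3 were higher and 2 lower (12.8% and 6.89% of all genes), with a median of 0.19 beside 0.10. Without cells 3 and 7 they were 6 higher and 1 lower than in Six2-only cells, with a median of 0.35 beside 0.19 over all genes. In that setting 1575 of 9826 compared genes were higher and 577 lower. Prim1, a DNA primase subunit, had medians of 74.7 RPKM in double, 91.4 in Six2-only and 4.67 in Foxd1-only cells. Mcm3, a subunit of the replicative helicase, had medians of 175 RPKM in double, 83 in Six2-only and 40.8 in Foxd1-only cells. Of 30 G2/M genes, 7 were higher and 0 lower than in Foxd1-only cells, beside the same 15.2% and 7.35%. Against Six2-only cells 3 were higher and 1 lower, a share of higher genes below the 12.8% of all genes. At least 20 of them were detected in cells 3, 21, 47, 49 and 50, and 6 in cells 15 and 31. At least 20 were detected in 5 of 9 double, 8 of 18 Six2-only and 7 of 15 Foxd1-only cells.

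Against all 33 cells with either gene alone, 1102 of 9933 genes (11.1%) were higher by 1 or more in double cells and 410 (4.13%) were lower, and the median difference of all genes was 0.11. Without cells 3 and 7 there were 1423 higher and 400 lower genes of 9826 compared, and a median of 0.19. The number of genes detected per cell also had its highest median in the double cells, and its part in the excess was not tested. Genes that differed by 1 or more from Six2-only and also from Foxd1-only cells numbered 549 higher and 161 lower, 5.53% and 1.62% of the 9933 compared. The genes named next were taken from the ends of this ranking and are there because of their values.

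Oip5, a factor of centromere assembly, differed by 3.33 from the cells with either gene alone, or by 2.88 without cells 3 and 7. It was found in 7 of 9 double, 6 of 18 Six2-only and 3 of 15 Foxd1-only cells. It was at 0 RPKM in cells 31 and 49 and 6.75 to 220 RPKM in the others, the highest in the shallow cell 3. Its coordinates overlap those of the mitotic gene Nusap1 by 207 bases, and the libraries keep no strand. Fen1, the flap endonuclease of replication and repair, was 2.76 above and was found in all 9 double cells at 7.08 to 159 RPKM with a median of 80.7 RPKM, against medians of 10.6 RPKM in Six2-only and 0.787 RPKM in Foxd1-only cells. Cdkn2aipnl was 3.12 above, at 8.42 to 239 RPKM in all 9 double cells, and was found in 11 of 18 Six2-only and 7 of 15 Foxd1-only cells. Slc25a11, the mitochondrial oxoglutarate carrier, was 2.52 above, at 19.1 to 272 RPKM in all 9. Pdcd2l was 2.66 above and also found in all 9, and Tpd52l1 was 2.76 above and found in all but cell 3. Blcap, Golph3l, Arxes1, Miip, Ccdc163 and Zfp825 were 2.53 to 2.73 above and found in 6 to 8 double cells. Arxes1 shares coordinates with Arxes2, Blcap with Nnat and Tpd52l1 with Gm3258, so reads of these genes may be divided between them. For each of these higher genes the levels overlapped with those of the other groups. In cells with neither Six2 nor Foxd1 the median was 137 RPKM for Slc25a11 and 44.7 RPKM for Blcap. These were above the double medians of 118 and 22.3 RPKM.

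Of the lower genes, Arf3, a small GTPase of the Golgi, differed by -2.32 from the cells with either gene alone. It was at most 1.73 RPKM in any double cell, against medians of 12.7 RPKM in Six2-only and 2.18 RPKM in Foxd1-only cells. Ckb, the brain-type creatine kinase, differed by -2.20 and reached 4.94 RPKM in cell 21 and 1.47 RPKM in cell 50 alone among the double cells, against 10 of 18 Six2-only and 7 of 15 Foxd1-only cells at 1 RPKM or more. Ly6e, a surface protein gene, was found in 1 of 9 double, 10 of 18 Six2-only and 10 of 15 Foxd1-only cells. Mau2, a subunit of the cohesin loader, was found in 5 of 9 double, 17 of 18 Six2-only and 14 of 15 Foxd1-only cells, with medians of 1.75 RPKM in double, 19.6 in Six2-only and 37 in Foxd1-only cells. Zfp617, Zfp873, Scamp4, Dhx8, Dalrd3, Pdcl, Dpm2 and Tsen34 completed the set, with differences of -1.93 to -2.32. In each of these genes some cells of the other groups were as low as the double cells, and a listed 0 may stand for an RNA that was not captured. The coordinates of Scamp4 overlap those of Adat3 by 4774 bases, and those of Dalrd3 overlap Wdr6 by 458 bases. Reads of these genes may be divided between them.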

How the data were processed

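RNA of 49 mouse cells was amplified with SMARTer chemistry and sequenced as Nextera XT libraries on a HiSeq2500, per the labels' protocols; no strand information and no molecular identifiers are kept. The values are RPKM, deposited by the authors. The submitters' processing notes name TopHat 1.4.1, DESeq and mm9. The read counter, the annotation and the base of the start coordinates were not given in the sources used here. A count of cells above 3 RPKM was deposited for each gene and matched the values in all 13093 genes, each above 3 RPKM in at least 1 cell.

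Groups were formed at 1 RPKM of Six2 and Foxd1, and the members and gene lists were chosen with earlier results of these data known. No cell was filtered and no doublet caller was run. Relative depth was taken from ratios of values below 8 RPKM to those of cell 1 (windows of 2e-05 in the natural log), which held at least 63 genes in each cell; total reads are unknown. Differences are of mean log2(RPKM + 1), pseudocount 1, over genes detected in at least 5 of 42 cells; cells with either gene alone were given a place with genes chosen without them. Genes named are list members and, in each direction, the 12 largest differences of 1 or more that also hold against each group and without cells 3 and 7 (higher genes in at least 5 double cells; predicted genes left out). Python 3.11.15, numpy 2.4.6, pandas 2.3.3 and scipy 1.17.1 were used, and the depth estimate and differences were tested on simulated data. Xist is not analysed here, so its planned check beside Y-linked genes gives no value. Alternatives were other limits, pseudocounts, filters and scalings and leaving out cells.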

Additional observations from a re-analysis of the deposited data

Results flagged for a closer look

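Among the 9 double cells, a cell was marked where its gap to the nearest other cell was a large part of the whole range; chance alone marks about 1 in 20 such groups, and several small counts are marked because most cells share a value. Foxd1 of cell 50 was 36.4 RPKM, and the relative depth of cell 3 was 0.0346. Cell 49 had 5 mural genes and 1 macrophage gene, which no other double cell had. Cell 31 had 8 signalling genes, the lowest number, and 1 endothelial gene, found in no other double cell. Cell 35 had 0 ureteric bud genes, where the others had 1 or 2.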

How the results depend on the processing

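The cells form 1 sample without named embryos, so spread between animals is unknown, and a 0 can be a missed transcript. The number of double cells was 12 at a limit of 0.5 RPKM, 8 at 2 RPKM, 6 at 5 RPKM and 8 at 5 steps of each gene, a limit chosen after seeing the data. With a pseudocount of 0.1 the genes higher and lower by 1 or more numbered 2416 and 1024, in place of 1102 and 410. With detection at 5 RPKM the median number of nephron progenitor genes per double cell was 7 in place of 10, and of stroma genes 8 in place of 10. Leaving out each double cell in turn gave medians of 9.5 to 10 nephron progenitor genes and 10 to 10.5 stroma genes, a median place of 0.52 to 0.58, and 1087 to 1454 higher and 376 to 558 lower genes. The median place ran from 0.55 to 0.61 over the other settings. The Crym difference from Six2-only cells, -0.18, was 0.56 without cell 31. Of 68 differences of 1 or more followed through the settings, 0 changed sign and at most 4 came under 1 in any setting, among them Osr1, Meox1, Meis1, Gfra1, Crabp1 and Pcna. Genes named from the ends of the ranking were chosen for large differences that hold against each group and without the shallow cells. Where such genes were followed, their stability is partly set by that choice. Of the followed differences under 1, some changed sign in at least 1 setting. These were Nr2f1 and Rarb against Foxd1-only cells, and Sall1, Hoxa11, Pdgfrb and Crym against Six2-only cells. No paired analysis was possible because all cells belong to 1 group without replicate numbers shared between groups.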
